A study of Mus musculus with 24 samples.

Results

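The expression of 39 genes of glycolysis and the hypoxia response was examined in mouse mammary tumor cells in culture and in the tumors they formed. The genes are a list of symbols that used no measured value as a criterion but was chosen with earlier results of these data known. Each symbol was found among the Ensembl gene identifiers of the deposited tables, out of 34519 genes that the tables of cultured cells and of tumors both list. They comprise 4 transporters of glucose and lactate, 15 glycolytic enzymes, 3 genes that control glycolytic flux, 4 genes of oxygen sensing, 4 genes of mitochondria and mTORC1 control, 2 carbonic anhydrases, 4 collagen-modifying enzymes and 3 other targets of hypoxia.

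The 24 libraries came from the lines D2.1 and D2A1, which derive from D2 hyperplastic alveolar nodules of BALB/c mice. In the study, D2.1 served as a model of dormant, slowly growing tumors and D2A1 as a model of aggressive growth. The 6 groups were D2.1 cells in culture (n = 3), D2A1 cells in culture (n = 3), and tumors grown in the mammary fat pad of female mice after implantation of 1000000 cells, from D2.1 in BALB/c (n = 4), D2A1 in BALB/c (n = 4), D2.1 in SCID-beige (n = 5) and D2A1 in SCID-beige (n = 5). BALB/c is the immunocompetent strain in which the lines arose, and SCID-beige mice carry the Prkdc scid and Lyst bg mutations, lack T and B cells and have impaired NK cells but keep macrophages and neutrophils. Tumors carry the size label 500, a volume in cubic millimetres. Only 1 line stands for each behaviour, so a difference between the lines is one between D2.1 and D2A1 and not between classes of tumors. The labels do not say whether the 3 culture libraries of a line came from separate cultures, and the study speaks of its in vitro points in general as technical replicates, so p-values that rest on the cultures measure the spread between these samples, which may be technical. Cultures and tumors were deposited in separate tables, so a difference in library preparation or counting between the tables cannot be told apart from one between culture and tumor.

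Glycolysis splits glucose into pyruvate in the cytosol, and in many tumors most of the pyruvate leaves the cell as lactate. The transcription factors HIF-1 and HIF-2, each an oxygen-labile alpha subunit with the stable partner ARNT, raise transcription of glucose transporters, glycolytic enzymes, pH regulators and collagen hydroxylases when oxygen is low. In normoxia, prolyl hydroxylases of the EGLN family mark the alpha subunits for destruction through VHL, and some of these hydroxylases are themselves HIF targets. The HIF alpha proteins are controlled mainly by their stability, so the transcripts of Hif1a and Epas1 do not report their activity.

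Counts on genes summed to 16837260 to 24818234 per culture library and 13566949 to 18355153 per tumor library. The 39 genes held 1.03 to 1.57% of these counts in cultures and 1.18 to 2.07% in tumors. Levels below are counts per 1000000 counts (CPM) with library sizes scaled by edgeR's TMM factors over all 24 libraries, and a floor of 3 counts lay at 0.121 to 0.178 CPM in cultures and 0.163 to 0.221 CPM in tumors before that scaling, which covers counting error only. Differences are log2 fold changes with their standard error (SE) from edgeR's quasi-likelihood test, and a gene was called when its Benjamini-Hochberg adjusted p over all genes tested was under 0.05. Tumor libraries hold RNA of host cells, so fewer cells of a type and less RNA per cell cannot be told apart in them. The summed level of 6 macrophage markers was 7.87 to 9.91 CPM in D2.1 and 1.32 to 2.84 CPM in D2A1 cultures, where Adgre1, C1qa and C1qb were at 0 in every D2A1 library, against 1579 to 1882, 1216 to 2277, 823 to 1840.0 and 705 to 1265 CPM in D2.1 and D2A1 tumors of BALB/c and of SCID-beige mice. The 6 endothelial markers summed to 88.7 to 146 CPM in D2.1 and 241 to 296 CPM in D2A1 tumors of BALB/c mice, and to 62.8 to 100.3 and 217.2 to 294 CPM in SCID-beige mice, without overlap between the lines, and 6 of 6 were above 3 counts in a library of every tumor group. The 4 markers of mammary tumor cells (Krt8, Krt18, Krt14, Cdh1) were above 3 counts in every group, at 2479 to 4868 CPM in D2.1 cultures, 142 to 358 CPM in D2A1 cultures and between 353 and 1202 CPM in tumors. The 4 proliferation markers summed to 1341 to 1817 CPM in cultures and 439.8 to 886 CPM in tumors. The part of host cells and of proliferation in the values below was not tested.

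The short DNA motif of hypoxia response elements, ACGTG or GCGTG on either strand, was searched in the 250 bases before each RefSeq transcription start (GRCm38.p6). Of the 39 genes, 34 matched a start by symbol, and 30 of them (88.2%) held the motif in at least 1 window, against 41.5% of 27025 genes in the RefSeq table. By window the shares were 80.9% of 47 and 38.6% of 32817. Bnip3l, Epas1, Ndrg1, Plod2 and Slc2a3 had no entry. Overlapping matches were counted separately, so that the palindrome CACGTG counts as 2. The windows of 4 genes are printed 5′ to 3′ on the strand of the gene, with the motif on either strand in capitals. They were chosen because Egln3 and Adm were called higher in SCID-beige tumors than in culture in both lines, Pgk1 in neither line, and Slc16a1 lower in both. A match is a string of letters in this window and not an occupied site.
Egln3 (chr12:54203875-54204124, minus strand): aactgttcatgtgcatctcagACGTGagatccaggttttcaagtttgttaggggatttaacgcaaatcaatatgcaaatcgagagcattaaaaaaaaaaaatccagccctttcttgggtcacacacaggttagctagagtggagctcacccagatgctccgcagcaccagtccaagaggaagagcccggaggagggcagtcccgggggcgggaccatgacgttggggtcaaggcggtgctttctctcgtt
Adm (chr7:110627407-110627656, plus strand): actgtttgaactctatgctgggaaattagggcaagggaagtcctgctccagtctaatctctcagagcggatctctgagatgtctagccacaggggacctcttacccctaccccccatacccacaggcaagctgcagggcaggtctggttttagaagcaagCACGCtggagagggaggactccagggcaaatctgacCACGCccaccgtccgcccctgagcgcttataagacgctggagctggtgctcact
Pgk1 (chrX:106186850-106187099, plus strand): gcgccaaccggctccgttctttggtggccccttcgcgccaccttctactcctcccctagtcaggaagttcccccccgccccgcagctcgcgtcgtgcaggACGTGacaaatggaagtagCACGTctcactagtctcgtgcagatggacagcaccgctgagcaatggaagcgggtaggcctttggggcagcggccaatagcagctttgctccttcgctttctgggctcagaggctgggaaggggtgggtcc
Slc16a1 (chr3:104638414-104638663, plus strand): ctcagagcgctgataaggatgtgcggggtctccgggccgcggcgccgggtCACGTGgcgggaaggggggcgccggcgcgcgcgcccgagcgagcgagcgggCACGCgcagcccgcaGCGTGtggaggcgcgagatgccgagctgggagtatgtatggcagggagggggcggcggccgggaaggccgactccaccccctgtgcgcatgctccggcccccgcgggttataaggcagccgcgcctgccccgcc

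The windows held 1 match for Egln3, 2 for Adm, 2 for Pgk1 and 4 for Slc16a1. Outside these 4 genes, windows with at least 4 matches stood before Ankrd37 (4), Bnip3 (5) and Ldha (5), of which Ankrd37 and Bnip3 were called higher in SCID-beige tumors than in culture in both lines and Ldha in neither.

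Compared per length (CPM per kilobase of GENCODE M21 exons), the same 6 enzymes led in every group: Pkm, Pgk1, Ldha, Aldoa, Tpi1 and Eno1 made up 69.5% to 80.0% of the summed level of the 39 genes. In D2.1 cultures the order was Pkm (1090.2 ± 165), Pgk1 (491 ± 98.6), Ldha (467 ± 106), Eno1 (342 ± 102), Tpi1 (316 ± 68.5) and Aldoa (300.2 ± 64.2) CPM per kb (mean ± SD, n = 3). In D2A1 cultures the order was Pgk1 (659 ± 83.2), Pkm (561 ± 94.2), Ldha (445 ± 92.2), Eno1 (374 ± 62.2), Aldoa (351 ± 54.8) and Tpi1 (277 ± 37.7) CPM per kb (n = 3). Neighbours in these orders differed by less than their summed SDs except for Pkm over Pgk1 in D2.1 cultures. Eno1 is uncertain, because 3 near-identical genes, Eno1b and Gm4735 among them, carried up to 50.9% as many counts as Eno1 in a tumor library.

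In SCID-beige tumors against culture, 27 of 39 genes were higher and 3 lower in D2A1, and 15 were higher and 8 lower in D2.1. With BALB/c tumors in place of SCID-beige tumors the counts were 22 higher and 2 lower in D2A1 and 16 higher and 10 lower in D2.1, so D2A1 had more calls than D2.1 with SCID-beige tumors but not with BALB/c tumors. Whether the counts differ was not tested. The lower calls of D2.1 numbered 5 without D2.1 SCID-beige replicate 1 or 5 or D2.1 culture replicate 1. Over all genes tested with SCID-beige tumors, 58.1% were called in D2A1 (33.6% higher and 24.5% lower) and 53.1% in D2.1 (30.8% higher and 22.3% lower). With BALB/c tumors 7844 of 14008 genes were called in D2A1 (4654 higher and 3190 lower). In D2.1 they were 8258 of 14387 (4930 higher and 3328 lower). Across the 39 genes the median log2 fold change was 0.90 in D2A1 and 0.33 in D2.1, beside 0.10 and 0.09 over all genes tested. The same 14 genes were higher in tumors of both lines, namely Adm, Aldoc, Ankrd37, Bnip3, Car9, Egln3, Eno2, Gpi1, Ndrg1, P4ha1, Pdk1, Plod1, Slc16a3 and Slc2a3. Hif1a, Hk2 and Slc16a1 were lower in both lines, and Ddit4, Epas1 and Hk1 were lower in D2.1 but higher in D2A1 tumors. The interaction of line with tumor against culture, fitted over these 4 groups, was past the threshold for 9 of 39 genes, 2 (Egln3, Pfkfb3) with a higher tumor over culture ratio in D2.1 and 7 (Aldoc, Car9, Ddit4, Epas1, Hk1, Ndrg1, Pfkfb4) with a higher ratio in D2A1, beside 12.8% of all genes (4.62% and 8.18%). The count of the interaction was 14 with BALB/c tumors in place of SCID-beige tumors and 15 without D2.1 SCID-beige replicate 4. With BALB/c tumors 2188 of 15222 genes tested were called for the interaction. With BALB/c tumors several D2A1 log2 differences from culture were smaller, at 1.96 for Slc2a3, 1.97 for Eno2, 2.73 for Adm and 4.20 for Ndrg1, and stayed past the threshold.

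**Figure D1:**
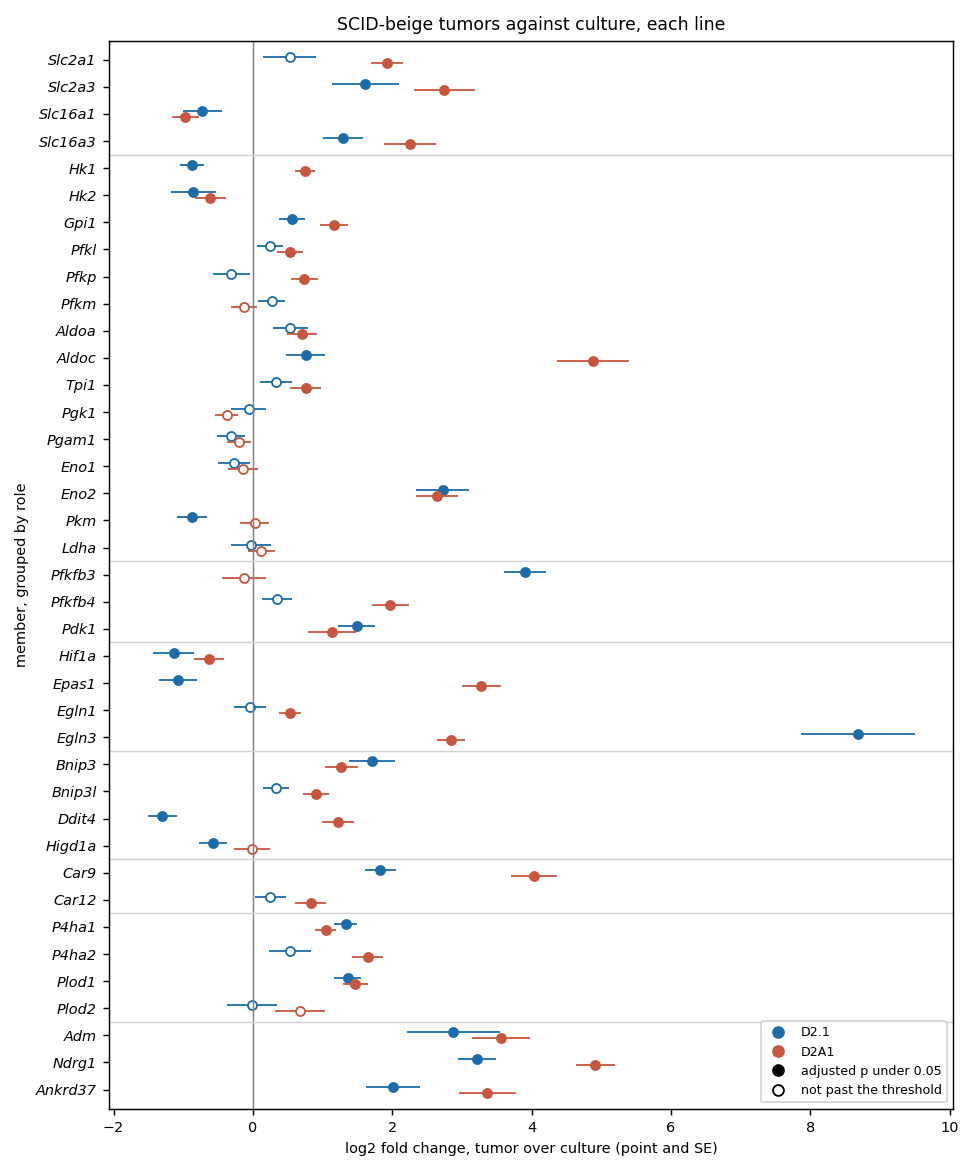
Log2 fold change of SCID-beige tumors over culture for each of the 39 genes (horizontal axis, point with SE bar), D2.1 in blue and D2A1 in red, with filled points where the adjusted p was under 0.05. Egln3 in D2.1 (8.68) and Ndrg1 (4.91) and Aldoc (4.88) in D2A1 lie farthest to the right, and Epas1, Ddit4 and Hk1 lie on opposite sides of 0 in the 2 lines.

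Between the lines, 16 of 39 genes were higher and 4 lower in D2.1 than in D2A1 cultures, where 44.9% of all genes tested were called (24.2% higher and 20.7% lower). With the replicate number as a block, a pairing the labels do not establish, these counts were 19 higher and 7 lower. Over all genes that fit called 7539 of 12489 (3828 higher and 3711 lower). In BALB/c tumors 13 were higher and 10 lower in D2.1 (all genes 32.6%, with 16.8% higher and 15.8% lower), and in SCID-beige tumors 10 and 5 (all genes 32.1%, with 17.2% and 14.8%). In a fit of all tumors the BALB/c counts were 13 higher and 5 lower, beside 2641 higher and 2608 lower of 16036 genes tested. The BALB/c counts were 12 higher and 5 lower without D2A1 replicate 1, 10 higher and 6 lower without D2.1 replicate 3 and 13 higher and 6 lower without D2.1 replicate 4. Shares over all genes are not given for fits that leave out a library. The balance of the SCID-beige counts turned without D2.1 replicate 4, at 7 higher and 10 lower, and the counts were 6 higher and 5 lower without D2A1 replicate 1 and 8 higher and 3 lower without D2A1 replicate 4. Over the list the median was 0.32 in culture, -0.10 in BALB/c and -0.07 in SCID-beige tumors, beside -0.02, -0.02 and 0.02 over all genes. Aldoc, Car12, Car9, Ddit4, Hk1, P4ha1, Pfkfb3, Pfkm and Slc16a3 were higher and Ankrd37, Egln3, Hif1a and Hk2 lower in D2.1 tumors of both hosts, and no gene was called in opposite directions in the 2 hosts. Slc2a1 and Pfkp were higher in D2.1 cultures but lower in D2.1 tumors from BALB/c hosts, and Pfkfb3 was lower in D2.1 cultures but higher in D2.1 tumors.

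**Figure D2:**
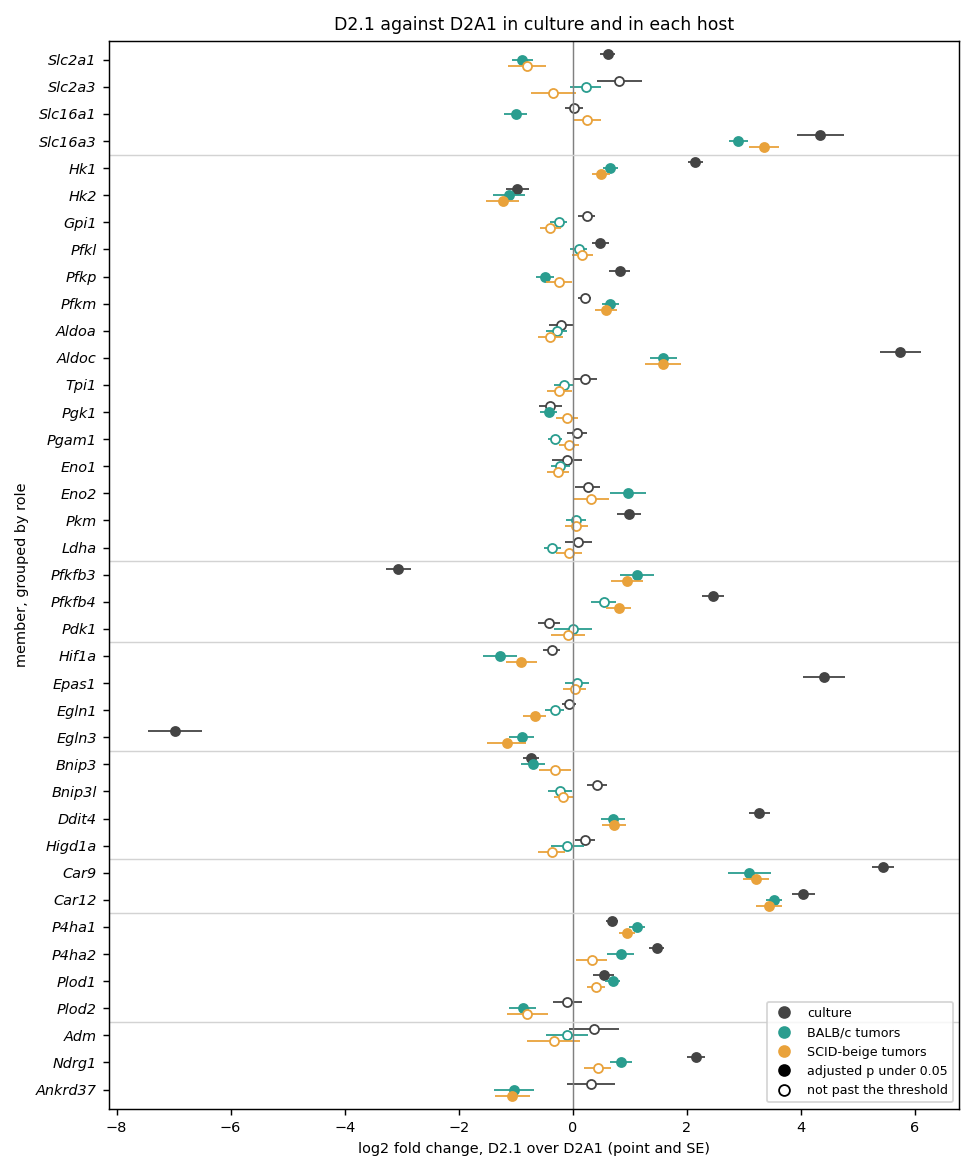
Log2 fold change of D2.1 over D2A1 for each of the 39 genes (horizontal axis, point with SE bar) in culture, in BALB/c tumors and in SCID-beige tumors, with filled points where the adjusted p was under 0.05. Car9, Car12 and Slc16a3 lie between 2.90 and 5.44 in all 3 settings, and Egln3 in culture lies farthest to the left (-6.98).

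Slc2a1, the main glucose transporter of proliferating cells (ENSMUSG00000028645, chr4:119108711-119137983, plus strand), was higher in D2.1 than in D2A1 cultures but lower in D2.1 than in D2A1 tumors of BALB/c mice. Slc2a1 measured 106, 99.8 and 89.4 CPM in the D2.1 cultures and 71.2, 66.7 and 59.0 CPM in the D2A1 cultures. Slc2a1 in BALB/c mice measured 91.5, 105, 101 and 86.3 CPM in D2.1 tumors and 235, 139, 193 and 145 CPM in D2A1 tumors. Slc2a1 in SCID-beige mice measured 77.5, 100.5, 232, 230.5 and 83.7 CPM in D2.1 tumors and 289, 213.6, 159, 306 and 301 CPM in D2A1 tumors. D2.1 cultures lay above all D2A1 cultures, whereas in BALB/c mice all D2A1 tumors lay above all D2.1 tumors, and in SCID-beige mice the lines overlapped because D2.1 replicates 3 and 4 reached the D2A1 range. The log2 fold change of D2.1 over D2A1 was 0.61 ± 0.13 (adjusted p = 0.00544) in culture, -0.88 ± 0.18 (adjusted p = 0.00447) in BALB/c and -0.80 ± 0.33 (adjusted p = 0.0779) in SCID-beige tumors. Against culture, SCID-beige tumors differed by 1.92 ± 0.23 (adjusted p = 3.7e-05) in D2A1 and 0.53 ± 0.38 (adjusted p = 0.261) in D2.1, and the interaction was -1.41 ± 0.47 (adjusted p = 0.0575). Slc2a1 is also abundant in red blood cell precursors, and the 4 globin markers summed to 47.5 to 1599.6 CPM in D2A1 tumors of SCID-beige mice, where replicates 1 to 4 lay at or under 168 CPM and replicate 5 held the highest value, and to 4.38 to 17.9 CPM in D2.1 tumors of SCID-beige mice, where Hbb-bt was at 0. Without D2A1 replicate 5 the D2A1 difference from culture was 1.86 on the log2 scale. Globin markers were at 0 in the D2A1 cultures, and the part of red cell precursors in the Slc2a1 values was not tested.

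Slc2a3, a high-affinity glucose transporter, was scarce in culture (2.59 ± 0.497 CPM in D2.1 and 1.50 ± 0.675 CPM in D2A1, mean ± SD, n = 3) and rose in SCID-beige tumors of both lines by 1.61 ± 0.48 (adjusted p = 0.0154) and 2.75 ± 0.44 (adjusted p = 0.000285) on the log2 scale. The D2.1 call was lost with the replicate block and without D2.1 culture replicate 1 or 3 (adjusted p up to 0.0642). Slc16a1 (MCT1), which carries lactate and pyruvate in either direction, was lower in SCID-beige tumors of both lines, where it fell by 0.73 ± 0.28 (adjusted p = 0.0440) in D2.1 and fell by 0.97 ± 0.19 (adjusted p = 0.00123) in D2A1. The D2.1 call of Slc16a1 was lost without D2.1 SCID-beige replicate 1, 2 or 5 and without D2.1 culture replicate 1 or 2 (adjusted p up to 0.144). With BALB/c tumors in place of SCID-beige tumors the D2.1 difference of Slc16a1 was -1.56. Slc16a1 measured 141, 171, 103 and 92.5 CPM in D2.1 tumors from BALB/c hosts and 154, 173, 269.6, 381 and 202 CPM in those of SCID-beige mice, where replicate 4 lay inside the range of the cultures. In BALB/c tumors the lines did not overlap for Slc16a1, at a log2 difference of -1.01 ± 0.21 (adjusted p = 0.00441) for D2.1 over D2A1.

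Slc16a3 (MCT4), the lactate exporter of highly glycolytic cells (ENSMUSG00000025161, chr11:120948480-120960868, plus strand), was the transporter with the widest line difference. Slc16a3 measured 168, 193 and 129.7 CPM in the D2.1 cultures and 11.1, 10.3 and 3.25 CPM in the D2A1 cultures. Slc16a3 in BALB/c mice measured 334, 246, 354 and 297 CPM in D2.1 tumors and 47.5, 36.1, 40.7 and 41.4 CPM in D2A1 tumors. Slc16a3 in SCID-beige mice measured 274, 377, 396, 680.4 and 319 CPM in D2.1 tumors and 44.6, 39.3, 28.1, 50.7 and 38.0 CPM in D2A1 tumors. Every D2.1 library lay above every D2A1 library of the same setting, and every SCID-beige tumor lay above every culture of its line. Slc16a3 was higher in D2.1 than in D2A1 by a log2 fold change of 4.34 ± 0.41 (adjusted p = 5.97e-05) in culture, 2.90 ± 0.17 (adjusted p = 1.24e-06) in BALB/c and 3.35 ± 0.26 (adjusted p = 6.82e-07) in SCID-beige tumors. Slc16a3 rose from culture to SCID-beige tumors by 1.29 ± 0.29 (adjusted p = 0.00328) in D2.1 and 2.25 ± 0.37 (adjusted p = 0.000362) in D2A1. Slc16a3 took 26.1% ± 0.797 of the summed per-length level of Slc16a1 and Slc16a3 in D2.1 cultures and 1.71% ± 0.852 in D2A1 cultures (SD, n = 3), and in SCID-beige tumors 59.1% ± 3.61 and 14.8% ± 4.70 (SD, n = 5, exact permutation p = 0.00794, adjusted p = 0.0893).

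Hexokinase commits glucose to the cell, and its isoforms were divided between the lines. Hk1, the broadly expressed isoform, measured 409, 511 and 433 CPM in D2.1 cultures and 98.3, 104 and 109.6 CPM in D2A1 cultures. D2.1 exceeded D2A1 in Hk1 by 2.15 ± 0.13 (adjusted p = 4.73e-06) in culture and by 0.65 ± 0.13 (adjusted p = 0.00318) in BALB/c and 0.50 ± 0.15 (adjusted p = 0.0251) in SCID-beige tumors on the log2 scale. The SCID-beige call was lost without D2.1 SCID-beige replicate 1, 2 or 4 and without D2A1 SCID-beige replicate 1, 3 or 4 (adjusted p up to 0.0832). Against culture, Hk1 fell by 0.88 ± 0.17 (adjusted p = 0.00138) in D2.1 SCID-beige tumors and rose by 0.75 ± 0.15 (adjusted p = 0.00117) in D2A1, an interaction of -1.63 ± 0.23 (adjusted p = 7.43e-05).

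Hk2, the inducible isoform of tumors and muscle (ENSMUSG00000000628, chr6:82725025-82774454, minus strand), ran the other way. Hk2 measured 65.6, 82.6 and 47.1 CPM in the D2.1 cultures and 141, 131 and 119 CPM in the D2A1 cultures. Hk2 in BALB/c mice measured 55.3, 33.2, 30.7 and 25.4 CPM in D2.1 tumors and 97.3, 97.4, 66.9 and 55.8 CPM in D2A1 tumors. Hk2 in SCID-beige mice measured 19.3, 27.8, 43.0, 59.9 and 33.9 CPM in D2.1 tumors and 82.6, 57.4, 74.8, 91.9 and 128 CPM in D2A1 tumors. The lines did not overlap in culture or in BALB/c mice, and in SCID-beige mice they overlapped only through D2.1 replicate 4 and D2A1 replicate 2. Hk2 gave a log2 difference of D2.1 over D2A1 of -0.97 ± 0.20 (adjusted p = 0.00426) in culture, -1.12 ± 0.28 (adjusted p = 0.0106) in BALB/c and -1.23 ± 0.29 (adjusted p = 0.00502) in SCID-beige tumors. Against culture, Hk2 fell by 0.85 ± 0.32 (adjusted p = 0.0437) in D2.1 and fell by 0.61 ± 0.22 (adjusted p = 0.0338) in D2A1 SCID-beige tumors, with overlap in both lines. The D2.1 call was lost without a filter, without D2.1 SCID-beige replicate 1, 2 or 5 and without D2.1 culture replicate 1 or 2 (adjusted p up to 0.189), and the D2A1 call without D2A1 SCID-beige replicate 1, 3 or 4 and without D2A1 culture replicate 1 or 2 (adjusted p up to 0.108). Hk1 made up 83.0% ± 3.04 of the summed per-length level of Hk1 and Hk2 in D2.1 cultures, 82.6% ± 5.57 in D2.1 BALB/c tumors and 82.7% ± 6.45 in D2.1 SCID-beige tumors, against 35.9% ± 3.19, 58.2% ± 7.88 and 59.3% ± 8.04 in D2A1 (SD, n = 3, 4 and 5). Between the lines in SCID-beige tumors the share had exact permutation p = 0.00794, adjusted p = 0.0893. The adjustment covered 55 share comparisons and left none under 0.05, and 3 cultures against 3 allow no p below 0.1.

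**Figure D3:**
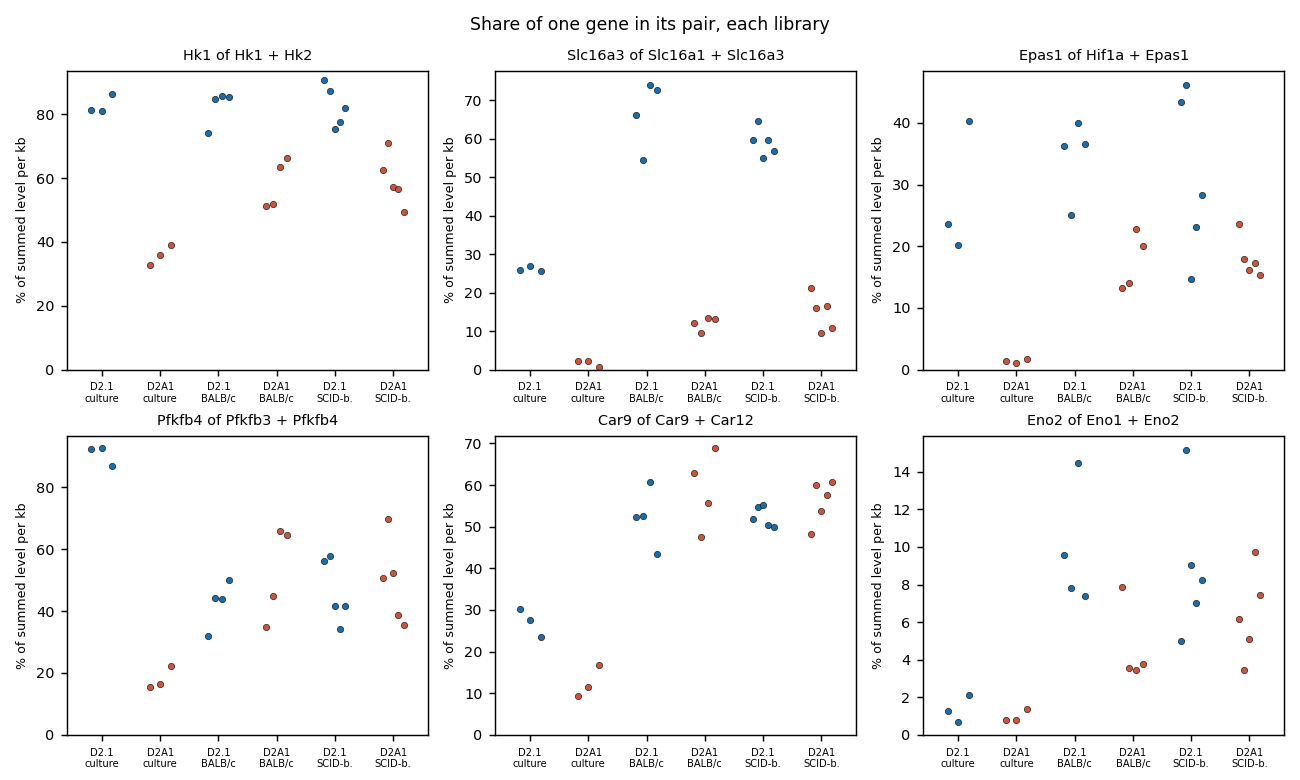
Share of the named gene in the summed CPM per kb of its pair (vertical axis, percent) in each library of the 6 groups, D2.1 in blue and D2A1 in red. The mean Hk1 share was 82.6% to 83.0% in the 3 D2.1 groups, and the Pfkfb4 and Car9 shares of the lines were apart in culture but overlapped in tumors.

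Aldoc, an aldolase typical of brain and a hypoxia-responsive isoform (ENSMUSG00000017390, chr11:78322968-78327781, plus strand), was nearly absent from D2A1 cultures. Aldoc measured 15.8, 13.8 and 18.6 CPM in the D2.1 cultures and 0.365, 0.420 and 0.116 CPM in the D2A1 cultures. Aldoc in BALB/c mice measured 29.1, 24.5, 40.6 and 26.6 CPM in D2.1 tumors and 11.5, 7.69, 8.95 and 12.2 CPM in D2A1 tumors. Aldoc in SCID-beige mice measured 14.5, 38.5, 25.4, 31.3 and 28.8 CPM in D2.1 tumors and 7.41, 15.7, 5.10, 9.44 and 8.70 CPM in D2A1 tumors. The D2A1 cultures held only 6, 7 and 2 counts, and all their values lay below every other library. Aldoc was higher in D2.1 than in D2A1 by 5.74 ± 0.36 (adjusted p = 5.1e-06) in culture, 1.59 ± 0.23 (adjusted p = 0.000575) in BALB/c and 1.58 ± 0.31 (adjusted p = 0.00150) in SCID-beige tumors, the last with overlap through D2.1 replicate 1 and D2A1 replicate 2. Aldoc rose from culture to SCID-beige tumors by 4.88 ± 0.52 (adjusted p = 1.25e-05) in D2A1 and 0.76 ± 0.28 (adjusted p = 0.0400) in D2.1, with an interaction of -4.14 ± 0.57 (adjusted p = 7.19e-05). The D2.1 call of Aldoc against culture was lost with the replicate block (adjusted p = 0.156). It was also lost without D2.1 SCID-beige replicate 2, 4 or 5 and without D2.1 culture replicate 1, 2 or 3 (adjusted p up to 0.149). Aldoa, the main aldolase, was far more abundant (874 ± 187 CPM in D2.1 and 1023 ± 159 CPM in D2A1 cultures, SD, n = 3), so Aldoc stayed at 0.0250% ± 0.0111 of their summed per-length level in D2A1 cultures and 0.477% ± 0.134 in D2A1 SCID-beige tumors.

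Eno2, the enolase of neurons and of hypoxic cells (ENSMUSG00000004267, chr6:124760053-124769673, minus strand), rose in both lines. Eno2 measured 22.4, 13.9 and 23.4 CPM in the D2.1 cultures and 15.1, 15.5 and 20.2 CPM in the D2A1 cultures. Eno2 in BALB/c mice measured 107, 96.7, 205 and 110.2 CPM in D2.1 tumors and 106, 46.3, 62.2 and 51.0 CPM in D2A1 tumors. Eno2 in SCID-beige mice measured 62.0, 230.0, 138, 135 and 108 CPM in D2.1 tumors and 130.3, 76.9, 66.2, 153 and 110.0 CPM in D2A1 tumors. No tumor of either line overlapped the cultures, and the lines overlapped in all settings. Eno2 rose from culture to SCID-beige tumors by 2.72 ± 0.38 (adjusted p = 0.000165) in D2.1 and 2.64 ± 0.30 (adjusted p = 1.96e-05) in D2A1, and D2.1 exceeded D2A1 in BALB/c tumors by 0.97 ± 0.31 (adjusted p = 0.0358), a call lost without D2.1 BALB/c replicate 3 and without D2A1 BALB/c replicate 2, 3 or 4 (adjusted p up to 0.108).

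Pgk1, the phosphoglycerate kinase and a textbook HIF-1 target (ENSMUSG00000062070, chrX:106187100-106203699, plus strand), did not pass the test between SCID-beige tumors and culture in either line. Pgk1 measured 1121, 1311 and 870.0 CPM in the D2.1 cultures and 1542, 1624 and 1268 CPM in the D2A1 cultures. Pgk1 in BALB/c mice measured 851, 895, 892 and 692 CPM in D2.1 tumors and 1259, 1134, 969 and 1128 CPM in D2A1 tumors. Pgk1 in SCID-beige mice measured 898, 799, 981, 1647 and 1058 CPM in D2.1 tumors and 1159, 987, 1058, 1299 and 1292 CPM in D2A1 tumors. Tumors and cultures overlapped in both lines, and only in BALB/c mice did all D2A1 tumors lie above all D2.1 tumors. The log2 difference of SCID-beige tumors from culture was -0.06 ± 0.25 (adjusted p = 0.843) in D2.1 and -0.38 ± 0.17 (adjusted p = 0.0698) in D2A1, where the replicate number as a block gave -0.49 with adjusted p = 0.00331. In BALB/c tumors the log2 difference of D2.1 over D2A1 was -0.43 ± 0.15 (adjusted p = 0.0476). This call was lost with DESeq2, with the size factors of DESeq2, without a filter, in a fit of all tumors, without D2.1 BALB/c replicate 1, 2, 3 or 4 and without D2A1 BALB/c replicate 1, 2 or 4 (adjusted p up to 0.117). The difference was -0.40 ± 0.20 (adjusted p = 0.142) in culture (-0.41 with adjusted p = 0.00200 with the replicate block) and -0.10 ± 0.20 (adjusted p = 0.734) in SCID-beige tumors.

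Ldha, which turns pyruvate into lactate (ENSMUSG00000063229, chr7:46841475-46855627, plus strand), was not called in any comparison. Ldha measured 1659, 1828 and 1153 CPM in the D2.1 cultures and 1595, 1698 and 1125 CPM in the D2A1 cultures. Ldha in BALB/c mice measured 1048, 1097, 1354 and 1306 CPM in D2.1 tumors and 1471, 1386, 1769 and 1564 CPM in D2A1 tumors. Ldha in SCID-beige mice measured 1277, 1243, 1388, 2675 and 1184 CPM in D2.1 tumors and 1893, 1859.6, 1331, 1616 and 1466 CPM in D2A1 tumors. The highest value was D2.1 SCID-beige replicate 4, tumors overlapped the cultures in both lines, and in BALB/c mice all D2A1 tumors lay above all D2.1 tumors. Ldha differed between SCID-beige tumors and culture by -0.03 ± 0.29 (adjusted p = 0.942) in D2.1 and 0.12 ± 0.19 (adjusted p = 0.628) in D2A1, and between the lines by 0.10 ± 0.24 (adjusted p = 0.768) in culture, -0.36 ± 0.15 (adjusted p = 0.0907) in BALB/c and -0.07 ± 0.23 (adjusted p = 0.844) in SCID-beige tumors. With the replicate block the BALB/c difference was -0.36 with adjusted p = 0.0203.

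Of the 15 glycolytic enzymes, 8 were higher and 1 lower in D2A1 SCID-beige tumors than in culture, and 3 were higher and 3 lower in D2.1. Over all genes tested, 33.6% were higher and 24.5% lower in D2A1, and 30.8% and 22.3% in D2.1. Beside those described, Gpi1, the isomerase of the second step, rose by 1.16 ± 0.20 (adjusted p = 0.000399) in D2A1 and 0.56 ± 0.19 (adjusted p = 0.0272) in D2.1. Aldoa (0.70, adjusted p = 0.0168), the triose isomerase Tpi1 (0.76, adjusted p = 0.0126) and the phosphofructokinases Pfkl (0.53, adjusted p = 0.0300) and Pfkp (0.73, adjusted p = 0.00655) rose in D2A1, while their D2.1 values of 0.54, 0.33, 0.24 and -0.31 did not pass. The D2.1 call of Gpi1 was lost with the replicate block, without D2.1 SCID-beige replicate 2 and without D2.1 culture replicate 1, 2 or 3 (adjusted p up to 0.104). The D2A1 calls were lost for Aldoa with BALB/c tumors and without D2A1 culture replicate 3 (adjusted p up to 0.0780), for Tpi1 with BALB/c tumors and without D2A1 culture replicate 3 (adjusted p up to 0.0605) and for Pfkl with BALB/c tumors, without D2A1 SCID-beige replicate 1 or 4 and without D2A1 culture replicate 1, 2 or 3 (adjusted p up to 0.128). Pkm, the pyruvate kinase, fell by 0.87 ± 0.21 (adjusted p = 0.00551) in D2.1, from 5553, 6222 and 4583 CPM in culture to 2855, 2904, 2738, 4415 and 2343 CPM, and overlapped the D2A1 tumors of SCID-beige mice (3329, 3769.6, 2213, 2804 and 2507 CPM). Pgam1 (phosphoglycerate mutase) and Eno1 differed by -0.31 and -0.27 in D2.1 and -0.20 and -0.14 in D2A1, with no call.

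Pfkm, the muscle phosphofructokinase, was higher in D2.1 than in D2A1 tumors by 0.66 ± 0.15 (adjusted p = 0.00787) in BALB/c and 0.58 ± 0.20 (adjusted p = 0.0374) in SCID-beige mice. The SCID-beige call was lost without D2.1 SCID-beige replicate 1, 2, 4 or 5 and without D2A1 SCID-beige replicate 1, 3, 4 or 5 (adjusted p up to 0.122). Summed skeletal muscle markers (7 genes) were 34.1 to 368 and 8.34 to 61.9 CPM in D2.1 and D2A1 tumors of BALB/c mice and 1.76 to 275 and 2.92 to 20.0 CPM in SCID-beige mice, with Tnnc2 at 0 in all of these groups but the last, and their part in the Pfkm values was not tested. Where counting did not use the strand, reads of Pfkm, Pfkp and Ankrd37 cannot be told apart from those of the overlapping genes Senp1, Pitrm1 and Ufsp2, and the strand setting is not given in the sources used here.

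Of the 3 control genes, Pdk1 diverts the product of glycolysis, and Pfkfb3 and Pfkfb4 make the activator of phosphofructokinase. Pfkfb3 (ENSMUSG00000026773, chr2:11471433-11554077, minus strand) is the inducible isoform. Pfkfb3 measured 2.53, 2.55 and 3.85 CPM in the D2.1 cultures and 27.8, 25.7 and 22.4 CPM in the D2A1 cultures. Pfkfb3 in BALB/c mice measured 78.2, 54.4, 62.6 and 42.5 CPM in D2.1 tumors and 40.6, 30.3, 15.8 and 22.5 CPM in D2A1 tumors. Pfkfb3 in SCID-beige mice measured 33.0, 33.8, 59.7, 50.9 and 48.7 CPM in D2.1 tumors and 16.3, 12.8, 21.4, 38.0 and 29.4 CPM in D2A1 tumors. D2.1 cultures lay below every other library, and in tumors D2.1 lay above D2A1 in BALB/c mice without overlap and in SCID-beige mice with overlap. Pfkfb3 gave a log2 difference of D2.1 over D2A1 of -3.06 ± 0.22 (adjusted p = 1.12e-05) in culture, 1.13 ± 0.29 (adjusted p = 0.0142) in BALB/c and 0.95 ± 0.29 (adjusted p = 0.0213) in SCID-beige tumors, the last lost without D2A1 SCID-beige replicate 1, 2 or 3 (adjusted p up to 0.0632). Pfkfb3 rose from culture to SCID-beige tumors by 3.90 ± 0.30 (adjusted p = 2.22e-06) in D2.1, while D2A1 differed by -0.13 ± 0.32 (adjusted p = 0.749), or -0.64 with adjusted p = 0.0143 with the replicate block, and the interaction was 4.01 ± 0.45 (adjusted p = 7.3e-06).

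Pfkfb4 showed the reverse order in culture, at 20.1, 20.9 and 16.4 CPM in D2.1 and 3.28, 3.24 and 4.12 CPM in D2A1 (2.46 ± 0.20, adjusted p = 1.86e-05), and rose in D2A1 SCID-beige tumors by 1.97 ± 0.27 (adjusted p = 8.25e-05), against 0.34 ± 0.21 (adjusted p = 0.200) in D2.1, an interaction of -1.64 ± 0.33 (adjusted p = 0.00202). As a share of the summed per-length level of both genes, Pfkfb4 went from 90.7% ± 3.31 in D2.1 cultures to 46.3% ± 10.2 in D2.1 SCID-beige tumors (exact permutation p = 0.0357, adjusted p = 0.0893) and from 18% ± 3.62 to 49.4% ± 13.6 in D2A1 (exact permutation p = 0.0357, adjusted p = 0.0893). The shares of the lines lay apart in culture, on opposite sides of the tumor values, and overlapped in SCID-beige tumors with exact permutation p = 0.690, adjusted p = 0.755.

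Pdk1, the kinase that shuts pyruvate dehydrogenase (ENSMUSG00000006494, chr2:71873224-71903858, plus strand), rose in tumors of both lines. Pdk1 measured 14.3, 16.9 and 23.05 CPM in the D2.1 cultures and 22.1, 23.3 and 28.9 CPM in the D2A1 cultures. Pdk1 in BALB/c mice measured 40.3, 46.2, 37.3 and 21.9 CPM in D2.1 tumors and 50.9, 49.6, 20.3 and 25.7 CPM in D2A1 tumors. Pdk1 in SCID-beige mice measured 38.2, 36.8, 58.1, 61.7 and 62.6 CPM in D2.1 tumors and 47.5, 22.7, 50.9, 72.5 and 81.6 CPM in D2A1 tumors. All D2.1 SCID-beige tumors lay above the D2.1 cultures, whereas D2A1 replicate 2 lay inside the range of its cultures. Pdk1 rose from culture to SCID-beige tumors by 1.49 ± 0.26 (adjusted p = 0.000690) in D2.1 and 1.13 ± 0.35 (adjusted p = 0.0153) in D2A1. For Pdk1 the D2A1 call was lost with BALB/c tumors and without D2A1 culture replicate 1 or 2 (adjusted p up to 0.142). The lines differed by 0.00 ± 0.33 (adjusted p = 0.996) in BALB/c, -0.09 ± 0.29 (adjusted p = 0.848) in SCID-beige tumors and -0.42 ± 0.20 (adjusted p = 0.114) in culture, where the replicate block gave -0.44 with adjusted p = 0.00931.

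Hif1a, the alpha subunit of HIF-1 (ENSMUSG00000021109, chr12:73901375-73947530, plus strand), was lower in D2.1 tumors. Hif1a measured 146, 169.6 and 127 CPM in the D2.1 cultures and 179.6, 178 and 229 CPM in the D2A1 cultures. Hif1a in BALB/c mice measured 79.5, 80.0, 39.4 and 46.1 CPM in D2.1 tumors and 185, 198, 109 and 105 CPM in D2A1 tumors. Hif1a in SCID-beige mice measured 42.5, 44.5, 111, 70.9 and 71.9 CPM in D2.1 tumors and 80.1, 111, 131, 156 and 165 CPM in D2A1 tumors. All D2.1 libraries lay below all D2A1 libraries in culture and in BALB/c mice, and all SCID-beige tumors lay below the cultures of their line. Within the tumors, BALB/c replicates 1 and 2 lay above replicates 3 and 4 in both lines, and SCID-beige replicates 1 and 2 lay below replicates 3, 4 and 5 in both lines. Hif1a gave a log2 difference of D2.1 over D2A1 of -1.28 ± 0.30 (adjusted p = 0.00819) in BALB/c and -0.90 ± 0.27 (adjusted p = 0.0214) in SCID-beige tumors, and -0.37 ± 0.15 (adjusted p = 0.0749) in culture (-0.38 with adjusted p = 0.0338 with the replicate block). For Hif1a the SCID-beige call was lost without D2A1 SCID-beige replicate 4 (adjusted p = 0.0525). From culture to SCID-beige tumors Hif1a fell by 1.14 ± 0.29 (adjusted p = 0.00672) in D2.1 and fell by 0.63 ± 0.22 (adjusted p = 0.0269) in D2A1, the latter lost with BALB/c tumors and without D2A1 culture replicate 3 (adjusted p up to 0.166).

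Epas1, which encodes HIF-2 alpha and is typical of endothelium (ENSMUSG00000024140, chr17:86753700-86833410, plus strand), separated the lines in culture but not in tumors. Epas1 measured 42.9, 40.8 and 81.2 CPM in the D2.1 cultures and 2.43, 1.68 and 3.77 CPM in the D2A1 cultures. Epas1 in BALB/c mice measured 42.8, 25.4, 24.97 and 25.3 CPM in D2.1 tumors and 26.6, 30.8, 30.7 and 25.1 CPM in D2A1 tumors. Epas1 in SCID-beige mice measured 31.0, 36.3, 18.1, 20.3 and 26.9 CPM in D2.1 tumors and 23.4, 23.1, 23.8, 30.8 and 28.3 CPM in D2A1 tumors. D2A1 cultures lay below every other library, D2.1 cultures lay above the SCID-beige tumors, and tumors of the lines overlapped. Epas1 was higher in D2.1 than in D2A1 by 4.41 ± 0.37 (adjusted p = 2.67e-05) in culture, against 0.08 ± 0.22 (adjusted p = 0.820) in BALB/c and 0.03 ± 0.20 (adjusted p = 0.926) in SCID-beige tumors. Epas1 rose from culture to tumor in D2A1 by 3.27 ± 0.28 (adjusted p = 2.4e-06) and fell by 1.08 ± 0.27 (adjusted p = 0.00600) in D2.1, an interaction of -4.37 ± 0.41 (adjusted p = 9.34e-07). The 6 endothelial markers summed to 0 to 0.300 CPM in D2A1 and 0.324 to 0.787 CPM in D2.1 cultures, with Kdr, Emcn and Cldn5 at 0 in D2A1, so endothelial markers were higher in tumors than in culture together with Epas1 in D2A1, and their part was not tested. Epas1 made up 28.0% ± 10.7 of the summed per-length level of Hif1a and Epas1 in D2.1 and 1.37% ± 0.362 in D2A1 cultures (SD, n = 3).

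Egln3, a prolyl hydroxylase strongly induced by hypoxia (ENSMUSG00000035105, chr12:54178981-54203860, minus strand), was the gene with the widest range. Egln3 measured 0.394, 0.0463 and 0.0566 CPM in the D2.1 cultures and 18.5, 20.3 and 25.3 CPM in the D2A1 cultures. Egln3 in BALB/c mice measured 56.1, 71.1, 93.6 and 60.3 CPM in D2.1 tumors and 148, 93.5, 158 and 126 CPM in D2A1 tumors. Egln3 in SCID-beige mice measured 22.3, 80.8, 52.1, 135 and 58.6 CPM in D2.1 tumors and 189, 161, 116, 163 and 151 CPM in D2A1 tumors. D2.1 cultures held only 7, 1 and 1 counts and lay below every other library. D2A1 cultures lay between them and the tumors except for D2.1 SCID-beige replicate 1, which was inside the range of the D2A1 cultures, and the tumors of the lines overlapped through D2.1 replicate 3 in BALB/c and replicate 4 in SCID-beige mice. Egln3 gave a log2 difference of D2.1 over D2A1 of -6.98 ± 0.47 (adjusted p = 8.04e-06) in culture, -0.90 ± 0.21 (adjusted p = 0.00873) in BALB/c and -1.16 ± 0.35 (adjusted p = 0.0205) in SCID-beige tumors. The BALB/c call of Egln3 was lost in a fit of all tumors (adjusted p = 0.0525) and the SCID-beige call without a filter (adjusted p = 0.0794). Egln3 rose from culture to SCID-beige tumors by 8.68 ± 0.82 (adjusted p = 9.68e-06) in D2.1 and 2.84 ± 0.20 (adjusted p = 5.42e-07) in D2A1, with an interaction of 5.83 ± 0.77 (adjusted p = 4.34e-05). At so few counts the D2.1 value rests on D2.1 culture replicate 1, without which the log2 difference was -8.50 between cultures, 10.19 against culture and 7.35 for the interaction. Egln1, the main hydroxylase of HIF alpha, rose in D2A1 tumors by 0.53 ± 0.16 (adjusted p = 0.0128), differed by -0.04 ± 0.23 (adjusted p = 0.900) in D2.1, and was lower in D2.1 than in D2A1 SCID-beige tumors, at -0.66 ± 0.20 (adjusted p = 0.0222), a call lost without D2.1 SCID-beige replicate 1 or 2 and without D2A1 SCID-beige replicate 4 (adjusted p up to 0.0515). The D2A1 rise of Egln1 was lost with BALB/c tumors (adjusted p = 0.325).

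Bnip3, a mitophagy receptor, rose in both lines, by 1.71 ± 0.33 (adjusted p = 0.00142) in D2.1 and 1.27 ± 0.24 (adjusted p = 0.000790) in D2A1, from 17.8 ± 1.84 and 30.1 ± 2.56 CPM in culture to 59.0 ± 23.6 and 73.9 ± 21.2 CPM in SCID-beige tumors. Its relative Bnip3l rose in D2A1 (0.90 ± 0.19, adjusted p = 0.00189) and differed by 0.33 ± 0.19 (adjusted p = 0.160) in D2.1. Ddit4 (REDD1), an inhibitor of mTORC1, went in opposite directions. In D2.1 it fell by 1.30 ± 0.21 (adjusted p = 0.000407), from 354, 239.6 and 329 to 113, 119, 132, 179 and 94.4 CPM, and in D2A1 it rose by 1.22 ± 0.23 (adjusted p = 0.000819), from 35.1, 31.3 and 31.2 to 67.3, 85.4, 47.7, 98.1 and 87.6 CPM. The groups of each line did not overlap, and the interaction was -2.53 ± 0.32 (adjusted p = 3.21e-05). Ddit4 was higher in D2.1 throughout, by 3.27 ± 0.18 (adjusted p = 2.63e-06) in culture, 0.70 ± 0.22 (adjusted p = 0.0307) in BALB/c and 0.72 ± 0.21 (adjusted p = 0.0188) in SCID-beige tumors. The BALB/c call of Ddit4 was lost without D2.1 BALB/c replicate 3 and without D2A1 BALB/c replicate 1, 2 or 4 (adjusted p up to 0.0873), and the SCID-beige call without D2.1 SCID-beige replicate 4 and without D2A1 SCID-beige replicate 1 (adjusted p up to 0.0627). Higd1a, a mitochondrial protein of the hypoxia response, fell by 0.57 ± 0.21 (adjusted p = 0.0346) in D2.1 SCID-beige tumors. This call was lost with the replicate block, without D2.1 SCID-beige replicate 1 or 5 and without D2.1 culture replicate 1 or 3 (adjusted p up to 0.174). In D2A1 Higd1a differed by -0.02 ± 0.26 (adjusted p = 0.956).

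Car9, the membrane carbonic anhydrase used as a marker of hypoxia (ENSMUSG00000028463, chr4:43506966-43513729, plus strand), differed between the lines and between culture and tumor. Car9 measured 42.1, 36.9 and 40.4 CPM in the D2.1 cultures and 0.791, 0.899 and 1.10 CPM in the D2A1 cultures. Car9 in BALB/c mice measured 125, 117, 199 and 81.8 CPM in D2.1 tumors and 17.9, 8.18, 11.3 and 24.1 CPM in D2A1 tumors. Car9 in SCID-beige mice measured 93.4, 185, 132, 169 and 143 CPM in D2.1 tumors and 12.9, 13.9, 11.2, 21.01 and 19.2 CPM in D2A1 tumors. D2.1 exceeded D2A1 in every library of each setting, and tumors exceeded cultures in both lines. The D2.1 cultures also lay above all D2A1 tumors. D2.1 was higher by 5.44 ± 0.19 (adjusted p = 4.49e-07) in culture, 3.09 ± 0.37 (adjusted p = 0.000168) in BALB/c and 3.21 ± 0.23 (adjusted p = 4.13e-07) in SCID-beige tumors. Car9 rose from culture to SCID-beige tumors by 1.83 ± 0.22 (adjusted p = 6.06e-05) in D2.1 and 4.03 ± 0.32 (adjusted p = 1.43e-06) in D2A1, and the interaction was -2.22 ± 0.36 (adjusted p = 0.000323).

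Car12, a related enzyme (ENSMUSG00000032373, chr9:66713686-66766845, plus strand), shared the line difference. Car12 measured 322, 318 and 432 CPM in the D2.1 cultures and 25.3, 22.9 and 18.04 CPM in the D2A1 cultures. Car12 in BALB/c mice measured 375, 348, 424 and 351 CPM in D2.1 tumors and 34.9, 29.7, 29.7 and 36.0 CPM in D2A1 tumors. Car12 in SCID-beige mice measured 287, 504, 353, 546 and 471 CPM in D2.1 tumors and 45.5, 30.6, 31.8, 51.0 and 41.0 CPM in D2A1 tumors. The lines did not overlap in any setting, and the D2A1 tumors of SCID-beige mice lay above the D2A1 cultures while the D2.1 groups overlapped. Car12 was higher in D2.1 than in D2A1 by 4.04 ± 0.20 (adjusted p = 1.58e-06) in culture, 3.53 ± 0.15 (adjusted p = 4.84e-07) in BALB/c and 3.43 ± 0.22 (adjusted p = 1.58e-07) in SCID-beige tumors. Against culture the log2 difference was 0.25 ± 0.22 (adjusted p = 0.370) in D2.1 and 0.83 ± 0.22 (adjusted p = 0.00789) in D2A1. Car9 took 27.1% ± 3.32 of the summed per-length level of Car9 and Car12 in D2.1 cultures and 52.5% ± 2.44 in D2.1 SCID-beige tumors, and 12.5% ± 3.82 and 56.0% ± 5.16 in D2A1 (SD, n = 3 and 5).

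Collagen hydroxylases depend on oxygen, and P4ha1 and P4ha2 (prolyl) and Plod1 and Plod2 (lysyl) modify collagen before secretion. P4ha1 rose in tumors of both lines, by 1.33 ± 0.17 (adjusted p = 7.32e-05) in D2.1 and 1.04 ± 0.15 (adjusted p = 0.000111) in D2A1, and was higher in D2.1 in culture (0.68 ± 0.11, adjusted p = 0.000931), in BALB/c (1.12 ± 0.14, adjusted p = 0.000202) and in SCID-beige tumors (0.95 ± 0.15, adjusted p = 0.000252) without overlap. Plod1 rose by 1.36 ± 0.19 (adjusted p = 0.000157) in D2.1 and 1.47 ± 0.18 (adjusted p = 3.52e-05) in D2A1. P4ha2 rose in D2A1 by 1.64 ± 0.23 (adjusted p = 9.6e-05), from 27.3, 27.0 and 23.6 to 90.6, 89.1, 52.8, 107 and 74.3 CPM, and with BALB/c tumors the rise was 0.86, while D2.1 differed by 0.53 ± 0.30 (adjusted p = 0.159). Plod2 differed from culture by -0.02 ± 0.36 (adjusted p = 0.973) in D2.1 and 0.67 ± 0.36 (adjusted p = 0.130) in D2A1, and was lower in D2.1 than in D2A1 BALB/c tumors, at -0.88 ± 0.24 (adjusted p = 0.0172), a call lost in a fit of all tumors, without D2.1 BALB/c replicate 3 and without D2A1 BALB/c replicate 1 (adjusted p up to 0.0715). The 5 fibroblast markers, among them the collagen gene Col1a1, summed to 1955 to 2879.9 CPM in D2.1 and 135 to 149 CPM in D2A1 cultures and to 3631 to 7091 and 1129 to 2502 CPM in SCID-beige tumors, with Dcn and Lum at 0 in D2A1 cultures, and their part in the values of P4ha1 and Plod1 was not tested.

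Ndrg1, a stress-response gene used as a hypoxia marker (ENSMUSG00000005125, chr15:66929318-66969640, minus strand), had the largest log2 difference of the 39 genes between D2A1 tumors and culture, within the SE of that of Aldoc. Ndrg1 measured 31.4, 35.4 and 31.7 CPM in the D2.1 cultures and 7.24, 6.65 and 8.70 CPM in the D2A1 cultures. Ndrg1 in BALB/c mice measured 272, 233, 253 and 232 CPM in D2.1 tumors and 199, 120.4, 132 and 103 CPM in D2A1 tumors. Ndrg1 in SCID-beige mice measured 222, 278, 367, 456 and 239 CPM in D2.1 tumors and 291, 173, 161, 279 and 250.4 CPM in D2A1 tumors. The cultures of each line lay below all tumors, D2.1 lay above D2A1 in culture and in BALB/c mice, and the lines overlapped in SCID-beige mice. Ndrg1 rose from culture to SCID-beige tumors by 3.22 ± 0.27 (adjusted p = 4.34e-06) in D2.1 and 4.91 ± 0.28 (adjusted p = 1.27e-07) in D2A1, with an interaction of -1.70 ± 0.35 (adjusted p = 0.00243). D2.1 was higher by 2.15 ± 0.16 (adjusted p = 1.19e-05) in culture, 0.84 ± 0.20 (adjusted p = 0.00857) in BALB/c tumors, and the difference in SCID-beige tumors was 0.44 ± 0.23 (adjusted p = 0.176).

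Adm encodes the vasodilator peptide adrenomedullin (ENSMUSG00000030790, chr7:110627661-110629820, plus strand). Adm measured 1.74, 2.59 and 1.19 CPM in the D2.1 cultures and 2.07, 1.50 and 0.812 CPM in the D2A1 cultures. Adm in BALB/c mice measured 9.28, 10.8, 9.87 and 6.15 CPM in D2.1 tumors and 16.9, 5.01, 8.41 and 8.56 CPM in D2A1 tumors. Adm in SCID-beige mice measured 3.95, 9.63, 17.0, 32.4 and 6.59 CPM in D2.1 tumors and 21.1, 14.9, 9.03, 23.1 and 20.1 CPM in D2A1 tumors. All tumors lay above the cultures of their line, and the lines overlapped in every setting. Adm rose from culture to SCID-beige tumors by 2.88 ± 0.67 (adjusted p = 0.00408) in D2.1 and 3.56 ± 0.41 (adjusted p = 2.46e-05) in D2A1, and the lines differed by 0.37 ± 0.44 (adjusted p = 0.530) in culture, -0.10 ± 0.36 (adjusted p = 0.857) in BALB/c and -0.34 ± 0.47 (adjusted p = 0.626) in SCID-beige tumors.

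Ankrd37, a small HIF-1 target (ENSMUSG00000050914, chr8:45996902-46005707, minus strand), rose in both lines and was higher in D2A1 than in D2.1 tumors. Ankrd37 measured 2.87, 2.78 and 2.44 CPM in the D2.1 cultures and 2.86, 2.82 and 0.928 CPM in the D2A1 cultures. Ankrd37 in BALB/c mice measured 4.75, 5.31, 12.8 and 6.53 CPM in D2.1 tumors and 16.2, 9.40, 19.3 and 15.4 CPM in D2A1 tumors. Ankrd37 in SCID-beige mice measured 5.23, 10.3, 9.56, 17.5 and 12.9 CPM in D2.1 tumors and 27.3, 23.1, 13.8, 30.6 and 21.6 CPM in D2A1 tumors. Every tumor lay above the cultures of its line, and D2A1 tumors lay higher, with overlap in both hosts. Ankrd37 rose from culture to SCID-beige tumors by 2.01 ± 0.39 (adjusted p = 0.00135) in D2.1 and 3.37 ± 0.41 (adjusted p = 3.41e-05) in D2A1, and the difference of D2.1 over D2A1 was -1.03 ± 0.35 (adjusted p = 0.0453) in BALB/c and -1.06 ± 0.30 (adjusted p = 0.0163) in SCID-beige tumors. The BALB/c call was lost without D2.1 BALB/c replicate 1, 2 or 4 and without D2A1 BALB/c replicate 1, 3 or 4 (adjusted p up to 0.113), and with BALB/c tumors the D2A1 rise was 2.77.

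**Figure D4:**
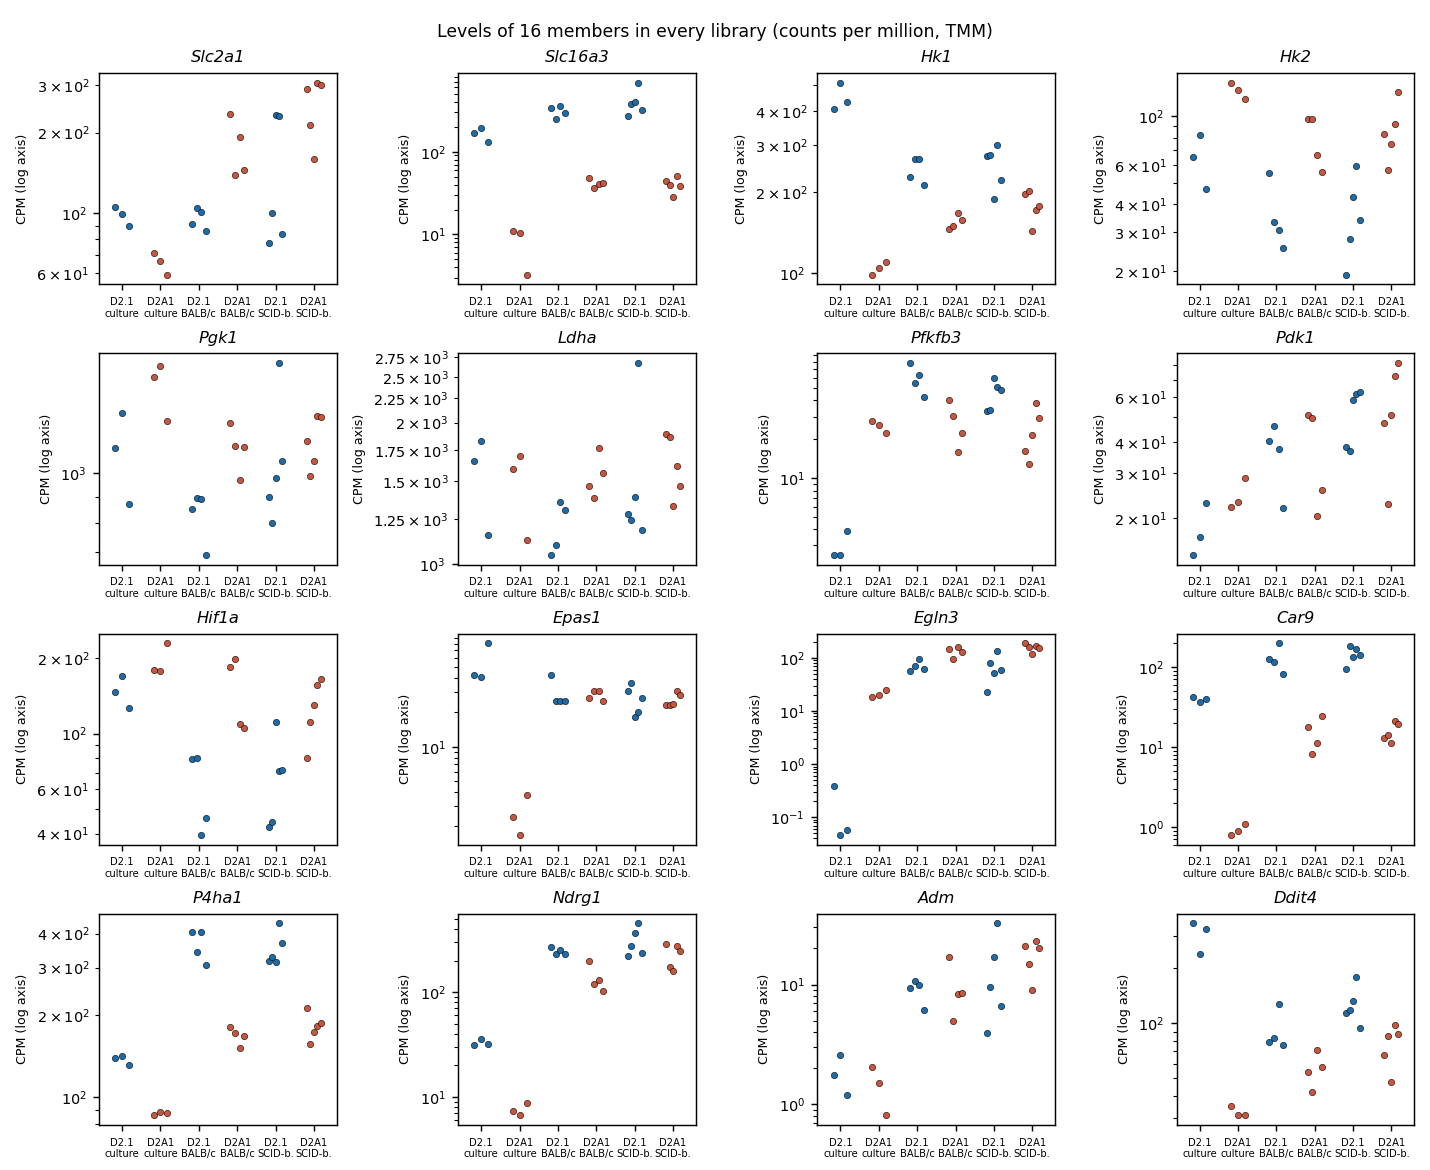
Level of 16 of the 39 genes (vertical log axis, CPM) in each library of the 6 groups (horizontal axis), D2.1 in blue and D2A1 in red, with SCID-b. for SCID-beige. Pgk1 and Ldha stay within a narrow range in all groups, Egln3 reaches from 0.0463 to 189 CPM, and the Epas1 tumors of both lines overlap while the cultures do not.

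Between hosts, edgeR called 0 of 39 genes in D2.1 tumors and 0 in D2A1 tumors, beside 0.891% and 1.17% of all genes tested. At an unadjusted p under 0.05 there were 1 in D2.1 (Slc16a1, at -0.87 ± 0.28, adjusted p = 0.242 for BALB/c over SCID-beige) and 8 in D2A1, beside 1489 of 14929 and 1472 of 14572 genes. The 8 in D2A1 were Adm, Ankrd37, Egln1, Eno2, Ndrg1, P4ha2, Slc2a1 and Slc2a3, each lower in BALB/c than in SCID-beige tumors, with log2 differences of -0.36 to -0.85, and none passed adjustment. P4ha2 came nearest, at -0.81 ± 0.20 (adjusted p = 0.0879) with 57.5, 45.1, 44.1 and 42.0 CPM in BALB/c and 90.6, 89.1, 52.8, 107 and 74.3 CPM in SCID-beige tumors, and was the single gene of 39 called by DESeq2 (adjusted p = 0.00714) or without D2A1 SCID-beige replicate 3 (adjusted p = 0.0439). DESeq2 called none of the 39 in D2.1. Over all genes DESeq2 called 517 of 18264 between the D2A1 hosts and 590 of 18769 between the D2.1 hosts. The fold change pointed to lower levels in BALB/c for 29 of 39 genes in D2.1 and 31 in D2A1, with medians of -0.18 and -0.19 beside -0.01 and 0.01 over all genes. The interaction of line and host was called for 0 of 39 genes by edgeR and by DESeq2 (1 at an unadjusted p under 0.05, Slc16a1 at -1.24 ± 0.35, adjusted p = 0.307), beside 0.0187% of all genes tested by edgeR and 104 of 15727 by DESeq2.

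How the genes varied together was examined across the 9 tumors of each line, for 12 genes against Pgk1 (24 relations on the log2 scale, with Benjamini-Hochberg adjustment over them). In D2A1 tumors Bnip3 followed Pgk1 with r = 0.90 (exact permutation p = 0.00139, adjusted p = 0.0333) and rho = 0.93 (exact permutation p = 0.000750, adjusted p = 0.0180). Without the 2 tumors farthest from the median of Pgk1 (n = 7) the coefficients were r = 0.92 and rho = 0.93 (adjusted p = 0.0952 and 0.162, exact permutation), and within hosts, as deviations from each host's mean, r = 0.90 and rho = 0.90 (adjusted p = 0.0295 and 0.0487, exact permutation). In D2.1 tumors the same relation had r = 0.80 (exact permutation p = 0.00713, adjusted p = 0.0570) and rho = 0.62 (exact permutation p = 0.0857, adjusted p = 0.257), and it fell to r = 0.43 without the 2 outlying tumors, so it rested on them.

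Pdk1 followed Pgk1 with r = 0.79 (exact permutation p = 0.0187, adjusted p = 0.112) and rho = 0.90 (exact permutation p = 0.00203, adjusted p = 0.0243) in D2.1 tumors and with r = 0.85 (exact permutation p = 0.00477, adjusted p = 0.0570) and rho = 0.87 (exact permutation p = 0.00451, adjusted p = 0.0361) in D2A1 tumors. Both passed by rank only. Without the 2 farthest tumors the coefficients were r = 0.89 and rho = 0.82 (adjusted p = 0.0952 and 0.273, exact permutation) in D2.1 and r = 0.63 and rho = 0.71 (adjusted p = 0.489 and 0.329, exact permutation) in D2A1. Within hosts they were r = 0.71 and rho = 0.75 (adjusted p = 0.115 and 0.153, exact permutation) in D2.1 and r = 0.88 and rho = 0.82 (adjusted p = 0.0295 and 0.129, exact permutation) in D2A1, so both rank calls were lost in both settings. P4ha1 passed by rank only, in D2A1 (rho = 0.83, adjusted p = 0.0496, exact permutation), and lost this call without the 2 farthest tumors (rho = 0.64, adjusted p = 0.370, exact permutation) and within hosts (rho = 0.65, adjusted p = 0.200, exact permutation). Ldha, the neighbour of Pgk1 in the pathway, had r = 0.81 in D2.1, which fell to 0.21 without the 2 farthest tumors, and r = -0.35 in D2A1. Over the 12 genes r ran from 0.42 to 0.81 in D2.1 and from -0.49 to 0.90 in D2A1, where Aldoa, Eno1 and Ldha were negative. By Pearson's r, 0 relations in D2.1 and 1 in D2A1 had an adjusted p under 0.05. By rank 1 in D2.1 and 3 in D2A1 did, against 0 and 0 without the 2 farthest tumors and 0 and 1 within hosts. Whether the lines differ in these correlations was not tested.

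**Figure D5:**
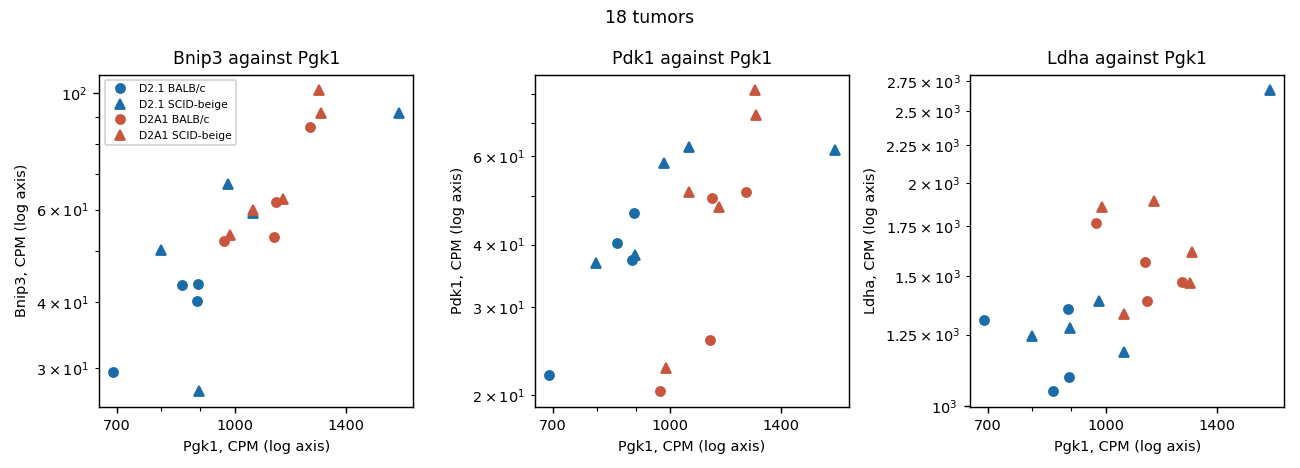
Bnip3, Pdk1 and Ldha (vertical log axes, CPM) against Pgk1 (horizontal log axis, CPM) in 18 tumors, D2.1 in blue and D2A1 in red, circles for BALB/c and triangles for SCID-beige hosts. Bnip3 climbs with Pgk1 in D2A1 (r = 0.90), and the D2.1 triangle at the far right is SCID-beige replicate 4, with 1647 CPM of Pgk1.

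Neighbouring pathways were read with the same fits, and their counts of SCID-beige tumors against culture stand beside 33.6% higher and 24.5% lower of all genes in D2A1 and 30.8% and 22.3% in D2.1. Among other hypoxia response genes, in SCID-beige tumors against culture, 27 of 42 were higher and 3 lower in D2A1 and 21 of 43 were higher and 7 lower in D2.1. Lox, which cross-links collagen, was at least 212.5-fold higher in D2A1 tumors (38.0 ± 19.1 CPM, SD, n = 5) than the floor of 3 counts per library in D2A1 cultures, and the iron carrier Trf was at least 28.4-fold higher in D2A1 and 63.9-fold higher in D2.1. Between the cultures, Angptl4, a lipase inhibitor and HIF target, was higher in D2.1 by 5.02 ± 0.32 (adjusted p = 6.43e-06) and the adenylate kinase Ak4 lower, at -3.24 ± 0.17 (adjusted p = 1.95e-06). The interaction of line with tumor against culture was -3.76 ± 0.37 (adjusted p = 1.45e-06) for Angptl4. In tumors, the hormone gene Stc1 was higher in D2.1 by 3.37 ± 0.34 (adjusted p = 5.44e-05) in BALB/c and 4.51 ± 0.39 (adjusted p = 1.76e-06) in SCID-beige mice, and the ferroxidase Cp lower, at -3.69 ± 0.30 (adjusted p = 1.23e-05) and -3.58 ± 0.46 (adjusted p = 5.27e-05).

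Of the other glycolysis and lactate genes, 8 of 19 were higher and 3 lower in D2A1 and 5 of 18 were higher and 4 lower in D2.1 for SCID-beige tumors against culture. Hk3, a hexokinase of myeloid cells, was at least 62.7-fold higher in D2A1 and 55.3-fold higher in D2.1 tumors than in culture, taken at the floor of 3 counts per library, and the part of macrophages, whose markers were higher in tumors, was not tested. Hk3 was also higher in D2A1 tumors of BALB/c than of SCID-beige mice (1.60 ± 0.26, adjusted p = 0.0142). Eno3, the muscle enolase, was lower in D2.1 than in D2A1 tumors, at -2.87 ± 0.26 (adjusted p = 2.41e-05) in BALB/c and -2.36 ± 0.36 (adjusted p = 0.000213) in SCID-beige mice. The skeletal muscle markers summed to 34.1 to 368 CPM in D2.1 and 8.34 to 61.9 CPM in D2A1 tumors from BALB/c hosts and to 1.76 to 275 and 2.92 to 20.0 CPM in SCID-beige mice, and their part in the Eno3 values was not tested. Bpgm, which makes the bisphosphoglycerate of red cells, was lower in D2.1 than in D2A1 SCID-beige tumors, at -2.02 ± 0.26 (adjusted p = 6.57e-05), where globin markers were also lower, and their part was not tested.

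Of the genes of pyruvate entry into mitochondria, 3 of 13 were higher and 9 lower in D2.1 SCID-beige tumors than in culture (all genes 30.8% and 22.3%) and 2 of 12 were higher and 8 lower in D2A1 (all genes 33.6% and 24.5%). The carrier subunit Mpc1 rose in both lines (3.26 ± 0.30, adjusted p = 8.3e-06, and 2.61 ± 0.28, adjusted p = 1.33e-05), as did the kinase Pdk2 (2.64 ± 0.38, adjusted p = 0.000204, and 2.25 ± 0.36, adjusted p = 0.000278), while the pyruvate dehydrogenase subunit Pdha1 fell in D2.1 (-1.18 ± 0.16, adjusted p = 0.000119) and Dld and Pdhx in D2A1 (-1.39 ± 0.15, adjusted p = 1.51e-05, and -1.30 ± 0.17, adjusted p = 6.35e-05). In the pentose phosphate pathway, 0 of 8 were higher and 5 lower in D2.1 tumors against culture and 2 of 8 were higher and 2 lower in D2A1, and D2.1 tumors were below D2A1 tumors for 5 of 8 genes in BALB/c and 5 of 8 in SCID-beige mice (all genes 15.8% and 14.8%), led in BALB/c by G6pdx, the entry enzyme (-1.50 ± 0.13, adjusted p = 1.86e-05). Of the HIF machinery, 5 of 13 were higher and 2 lower in D2A1 and 2 of 13 were higher and 2 lower in D2.1 tumors against culture, and Arnt2, a partner of HIF alpha, was higher in D2.1 in culture (3.94 ± 0.44, adjusted p = 0.000152), in BALB/c (2.31 ± 0.35, adjusted p = 0.000675) and in SCID-beige tumors (1.86 ± 0.40, adjusted p = 0.00278). These lists were chosen with earlier results of these data known, and nothing is called particular to them.

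In culture, Plod1 (0.54 ± 0.18, adjusted p = 0.0389) and Pfkl (0.48 ± 0.15, adjusted p = 0.0246) were also higher in D2.1. The Plod1 call was lost without D2A1 culture replicate 1 or 2 and without D2.1 culture replicate 3 (adjusted p up to 0.122) and the Pfkl call without D2.1 culture replicate 1 or 2 (adjusted p up to 0.0695), while P4ha2 (1.47 ± 0.13, adjusted p = 4.04e-05), Pkm (0.98 ± 0.22, adjusted p = 0.00608) and Pfkp (0.82 ± 0.18, adjusted p = 0.00608) were higher and Bnip3 lower (-0.73 ± 0.14, adjusted p = 0.00328) without such losses. The replicate block added Slc2a3 (0.86 with adjusted p = 0.0497), Bnip3l (0.44 with adjusted p = 0.00128) and Gpi1 (0.24 with adjusted p = 0.0320) in culture, and Egln1 (-0.31 with adjusted p = 0.0322), Pfkfb4 (0.58 with adjusted p = 0.0178) and Pgam1 (-0.32 with adjusted p = 0.0338) in BALB/c tumors. In BALB/c tumors Plod1 was higher in D2.1 (0.70 ± 0.14, adjusted p = 0.00343), P4ha2 was higher (0.84 ± 0.24, adjusted p = 0.0237), and Bnip3 (-0.69 ± 0.21, adjusted p = 0.0268) and Pfkp (-0.49 ± 0.16, adjusted p = 0.0406) were lower. These calls were lost for P4ha2 without D2.1 BALB/c replicate 1 or 3 and without D2A1 BALB/c replicate 2, 3 or 4 (adjusted p up to 0.0691), for Bnip3 in a fit of all tumors, without D2.1 BALB/c replicate 3 or 4 and without D2A1 BALB/c replicate 1 (adjusted p up to 0.0780) and for Pfkp without a filter, in a fit of all tumors, without D2.1 BALB/c replicate 1, 3 or 4 and without D2A1 BALB/c replicate 1 or 2 (adjusted p up to 0.113). In SCID-beige tumors Pfkfb4 was higher in D2.1 (0.81 ± 0.22, adjusted p = 0.0117).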

How the data were processed

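RNA-seq of D2.1 and D2A1 cells in culture and of tumors in BALB/c and SCID-beige mice was analysed. Libraries were constructed by Novogene. The submitters' processing notes name STAR and the build mm10, and the counting program, the annotation and the strand setting are not given in the sources used here. The authors deposited 1 table of raw gene counts and 1 of FPKM for cultures and the same for tumors. The deposited FPKM were used only to read gene lengths, which differed between the culture and tumor tables (within 1% for 24.8% of 19189 genes). Levels and tests therefore rest on the deposited counts. Levels and the tests that compare tumors with culture used the 34519 genes listed for both. Tests between cultures started from the 35275 genes listed for cultures. Tests among tumors started from the 54532 genes listed for tumors. Columns were matched to samples by the names in the labels.

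Counts were scaled by TMM and tested with edgeR 4.0.16 (quasi-likelihood, R 4.3.3) after the default expression filter, with the groups of each comparison in the fit, Benjamini-Hochberg adjustment over all genes tested and a threshold of 0.05. SE is the absolute log2 fold change divided by the square root of F. Log2 CPM values carry a prior count of 2, which did not enter the fitted fold changes. Per-length levels used exon lengths of GENCODE M21 (GRCm38), from which coordinates were also taken. The order of genes per length and the shares depend on these lengths. For Slc16a3 the exon length was 5318 bases, and the deposited FPKM implied 4335 in cultures and 1545 in tumors. For Slc16a1 each of these lengths was 4426. Promoter windows came from RefSeq (GRCm38.p6). Shares and correlations used exact permutation tests, two-sided (Python 3.11.15, numpy 2.4.6, scipy 1.17.1), and figures matplotlib 3.10.9. The fitting was tested on simulated data. For the comparison of the D2A1 hosts, 5.71% of the calls on simulated data were false with edgeR and 16.7% with DESeq2.

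The 39 genes and all lists were chosen with earlier results of these data known. Values in every library were given for Slc2a1, Hk2, Pgk1, Ldha, Slc16a3, Pdk1, Car9, Hif1a and Epas1 and for the 6 members with the largest log2 fold change past the threshold in each comparison of 2 groups. Genes of other lists were taken from the up to 4 per list and comparison with the largest log2 fold change past the threshold, and the library values of other members were added after they were seen.

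Replicate numbers in the labels do not say what they share. Deviations from group means of same-numbered samples correlated with r of 0.184 to 0.491 in culture, 0.100 to 0.491 in BALB/c tumors and 0.131 to 0.273 in D2A1 tumors against culture, above 0.1 in every pair. The same number gave the highest r for only 2 of 3 samples in culture and 1 of 4 in BALB/c tumors. In D2A1 tumors against culture it did so for 2 of 3. These numbers were treated as pairing the samples, but that pairing is not established. In these comparisons blocked values stand beside the results they change, and elsewhere only some are given. The block also called Plod2 between the lines in SCID-beige tumors (-0.81 with adjusted p = 0.00200). In D2.1 tumors against culture it called Pfkp (-0.65 with adjusted p = 0.0246). For the interaction of line with tumor against culture it added genes, Slc2a1 among them (-1.48 with adjusted p = 0.0492). The alternatives were DESeq2 1.42.0, its size factors, no filter, a filter of at least 10 counts, a fit of all tumors, BALB/c in place of SCID-beige tumors, the replicate block and leaving out each library. A total of 38 pairs of libraries were compared and none was a copy.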

Additional observations from a re-analysis of the deposited data

Results flagged for a closer look

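Of 156 sets of values, each 1 gene in 1 group of 4 or 5 tumors, 4 (2.56%) held a tumor whose distance from the nearest of the others was large against the range of the group (Dixon's test), where chance marks about 1 in 20 groups. Eno1 was 2005 CPM in D2A1 BALB/c replicate 3 against 1422 to 1492 CPM in the other tumors of the group. Ldha was 2675 CPM in D2.1 SCID-beige replicate 4 against 1184 to 1388 CPM. Epas1 was 42.8 CPM in D2.1 BALB/c replicate 1 against 24.97 to 25.4 CPM, and Ddit4 was 127 CPM in D2.1 BALB/c replicate 3 against 75.6 to 82.6 CPM.

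For 9 genes the tumor against culture difference itself differed between the lines in edgeR's interaction test (adjusted p under 0.05 over all genes). The D2.1 minus D2A1 difference of log2 fold changes was 5.83 for Egln3 and 4.01 for Pfkfb3, and -4.37 for Epas1, -4.14 for Aldoc, -2.53 for Ddit4, -2.22 for Car9, -1.70 for Ndrg1, -1.64 for Pfkfb4 and -1.63 for Hk1.

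A second entry with the symbol Aldoa (ENSMUSG00000114515), which was not used for the values of Aldoa and is listed only for tumors, held 3 to 40 counts per tumor library with a median of 18.5, above the limit of 3 counts that a count of 0 allows.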

How the results depend on the processing

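Of the 120 calls of single genes among the 39, 89 held in every alternative run for them, and of 1722 values under alternatives 1596 kept the call, 126 lost it and 0 changed direction. In D2A1 tumors of BALB/c against SCID-beige mice, where 0 of the 39 genes were called, DESeq2 called 1, beside 517 of 18264 genes. Leaving out a library gave 0 to 1 (P4ha2 without D2A1 SCID-beige replicate 3). The interaction of line and tumor against culture, with 9 calls, gave 17 with the replicate block, whose numbers did not pair the samples by the check in D2.1, 14 with BALB/c tumors and 9 to 15 when a library was left out (15 without D2.1 SCID-beige replicate 4). Over all genes the interaction was called for 1930 of 15077, for 2462 of 15077 with the block and for 2188 of 15222 with BALB/c tumors. The cause of these changes was not tested. The 9 calls themselves held in every alternative. Of the 12 correlations with Pgk1 per line, 0 passed by Pearson's r in D2.1 and 1 as deviations from each host's mean (P4ha1), and in D2A1 1 passed, 0 without the 2 extreme tumors, with 7 left, and 2 as deviations from each host's mean (Pdk1 and Bnip3).

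Leaving out a library gave 19 to 21 calls between cultures, 16 to 21 between BALB/c tumors, 11 to 17 between SCID-beige tumors, 17 to 23 for D2.1 and 27 to 31 for D2A1 tumors against culture, and 0 for the D2.1 hosts and for the interaction of line and host. Where numbers were treated as pairing, the block gave 26 calls in culture, 27 in BALB/c tumors and 32 for D2A1 tumors against culture. Over all genes the block called 7539 of 12489, 7116 of 14953 and 9299 of 13869. Elsewhere it gave 16 in SCID-beige tumors and 20 for D2.1 tumors against culture (all genes 5311 of 14355 and 7135 of 14111). In D2.1 tumors against culture Aldoc, Gpi1, Higd1a and Slc2a3 lost their calls. The log2 differences of Slc2a3 and Adm there were 0.93 (adjusted p = 0.0642) and 2.23. In the host comparisons the block gave 0. Over all genes it called 14 of 14929 between the D2.1 hosts and 0 of 14572 between the D2A1 hosts. With 0 calls over all genes, any list would give 0 between the D2A1 hosts. The size factors of DESeq2 moved the median of all genes by at most 0.0679 on the log2 scale. Genes near the floor of 3 counts, such as Egln3 in D2.1 and Aldoc in D2A1 cultures, have fold changes that depth limits.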
